A study of Homo sapiens with 2 samples.

Results

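The 8 genes described here encode transporters through which liver cells move bile acids, drugs and lipids, and they were examined for regions bound by LSD2 in HepG2 cells. LSD2 is a histone demethylase, the product of the gene KDM1B, that uses flavin to remove methyl groups from a lysine of histone H3. The cells, a human line derived from a liver tumour, were grown in high-glucose medium with serum, and the labels name no treatment for either library. Sequencing of immunoprecipitated chromatin (ChIP-seq) gave 1 LSD2 ChIP library, from a rabbit polyclonal antibody against recombinant human LSD2, and 1 input library of chromatin DNA without antibody. The deposited result is a list of regions, called peaks, in which LSD2 ChIP exceeded input, given as positions on the human genome build hg19 without a height or p-value.

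A peak was counted as belonging to a gene when its midpoint fell in the gene's interval, and lines that repeated the same interval were counted once. By this rule 205 of the 370863 distinct peaks lay in the 8 genes, which together span 845 kb. The genes are ABCB11, ABCC2, ABCB4, ABCB1, ABCA1, SLC10A1, SLCO1B1 and SLCO1B3, and each held at least 1 peak. The 200 kb on either side of each gene, without the other 7 genes, served as flanks and held 373 peaks over 2642 kb. With 1 library per condition there is no replicate error. The sequencing depth is unknown here, so all comparisons are descriptions, and the exact 95% intervals on ratios cover counting error only and treat peaks as independent. Fewer reads or less DNA from a region cannot be told apart from less LSD2 in such a list. The list holds no expression values, so the identity of the cells was not tested.

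In hepatocytes, bile acids are taken up from the blood by carriers in the basolateral membrane and pumped into bile across the canalicular membrane by ATP-driven transporters of the ABC family. The same routes carry drugs and bilirubin. The export pumps are ABCB11 (the bile salt export pump, BSEP), ABCC2 (MRP2, which exports conjugates such as bilirubin glucuronide), ABCB4 (MDR3, which moves phosphatidylcholine into bile) and ABCB1 (P-glycoprotein, a drug efflux pump). ABCA1 is neither a bile acid nor a drug pump in its main role, since it passes cholesterol and phospholipid to apolipoprotein A-I in the formation of HDL. The uptake carriers are SLC10A1 (NTCP, sodium-dependent uptake of bile salts), SLCO1B1 (OATP1B1) and SLCO1B3 (OATP1B3), a pair of related carriers that take up organic anions, statins and bilirubin. Expression of several of these genes is set by nuclear receptors for bile acids and oxysterols and by liver factors such as HNF1.

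The promoters of 3 genes are shown because the nearest peaks are described relative to gene starts in this section and because they belong to the gene that differed most from its flanks (ABCA1), the densest gene (ABCC2) and an uptake carrier with a peak near its start (SLCO1B1). They are RefSeq sequences on GRCh38.p14 that run from 250 bases before to 50 after the listed start, 5′ to 3′ on the strand of the gene. They were not placed on the hg19 peaks, and 7 of the 8 genes had a window of this kind. Capitals mark matches to any of 4 motifs searched on both strands, which were chosen after the sequences had been seen.
ABCA1: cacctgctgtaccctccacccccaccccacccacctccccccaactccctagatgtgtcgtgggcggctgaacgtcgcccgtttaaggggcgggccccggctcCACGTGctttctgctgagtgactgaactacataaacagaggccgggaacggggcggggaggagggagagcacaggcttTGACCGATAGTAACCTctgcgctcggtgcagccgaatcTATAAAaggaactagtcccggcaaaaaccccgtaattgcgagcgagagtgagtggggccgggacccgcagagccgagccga
ABCC2: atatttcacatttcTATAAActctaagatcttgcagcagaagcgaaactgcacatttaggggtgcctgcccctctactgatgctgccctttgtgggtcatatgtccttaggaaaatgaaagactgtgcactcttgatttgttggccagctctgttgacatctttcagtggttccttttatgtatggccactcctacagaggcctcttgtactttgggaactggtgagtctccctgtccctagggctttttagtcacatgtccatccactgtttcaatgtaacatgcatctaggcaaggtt
SLCO1B1: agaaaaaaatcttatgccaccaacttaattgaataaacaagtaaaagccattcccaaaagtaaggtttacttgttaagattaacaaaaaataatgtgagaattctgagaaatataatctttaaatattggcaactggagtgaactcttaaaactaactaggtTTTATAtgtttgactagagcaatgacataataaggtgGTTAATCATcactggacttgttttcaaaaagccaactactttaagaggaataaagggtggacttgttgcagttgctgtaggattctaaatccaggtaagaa

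In the ABCA1 window (chr9:104928106-104928405, minus strand) the capitals are, in order, an E-box (CACGTG), a pattern in which TGACC and TAACCT are parted by any 5 bases, and a TATA box (TATAAA). The spacing of 5 bases was a setting of the search and is not given here as that of sites bound by the oxysterol receptor LXR. The pattern as searched occurs in 11 of the 35116 RefSeq promoter windows (0.0313%), and its relation to LXR sites was not tested. In the ABCC2 window (chr10:99782390-99782689, plus strand) the only capitals are a TATAAA match. The SLCO1B1 window (chr12:21130944-21131243, plus strand) holds TATAAA on the opposite strand and then GTTAATNAT, part of the site recognised by HNF1. The GTTAATNAT motif is present in 0.792% of all windows, and the SLCO1B3 window holds it too. TATAAA is found in 11.5% and CACGTG in 7.26% of all windows. The ABCA1 window has 62.7% G or C and 23 CpG dinucleotides, the ABCC2 window 45.0% and 1, and the SLCO1B1 window 31.3% and 0. Over all windows the medians are 58.7% and 14. A match is a description of the letters and not a site of binding.

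The 8 genes were denser in LSD2 peaks than the sequence around them, and 3 of them held most of the peaks. Together they had 24.3 peaks per 100 kb, against 14.1 in the flanks and 13.0 over all sequence in which peaks were listed. The density in the genes was 1.72 times that in the flanks (95% interval 1.44 to 2.04). ABCA1, ABCB1 and ABCC2 held 147 of the 205 peaks (71.7%). ABCB11, ABCB4, SLC10A1, SLCO1B1 and SLCO1B3 had 17.5, 16.2, 4.66, 11.0 and 13.2 peaks per 100 kb. Their own flanks had 18.0, 13.1, 9.25, 10.75 and 9.25, and the interval of each ratio included 1. With each gene left out in turn, the pooled ratio lay between 1.37 (1.12 to 1.67), without ABCA1, and 1.88 (1.56 to 2.27), without ABCB11. No pooled ratio was computed with ABCA1, ABCB1 and ABCC2 all left out. In 6 of the 8 genes the density was above that of the flanks and in 2 it was below. The flanks of ABCB1 and ABCB4 overlap, as do those of SLCO1B1 and SLCO1B3, so the ratios within each pair share reference peaks. In the pooled ratio such stretches were counted once. For comparison, 45.3% of all 100 kb windows in the genome were denser than their own 200 kb flanks and 54.7% were not. The interval of the ratio lay above 1 for ABCA1, ABCC2 and ABCB1 and below 1 for 0 of the 8, while over all 100 kb windows it lay above 1 in 5.46% and below 1 in 4.71%.

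**Figure D1:**
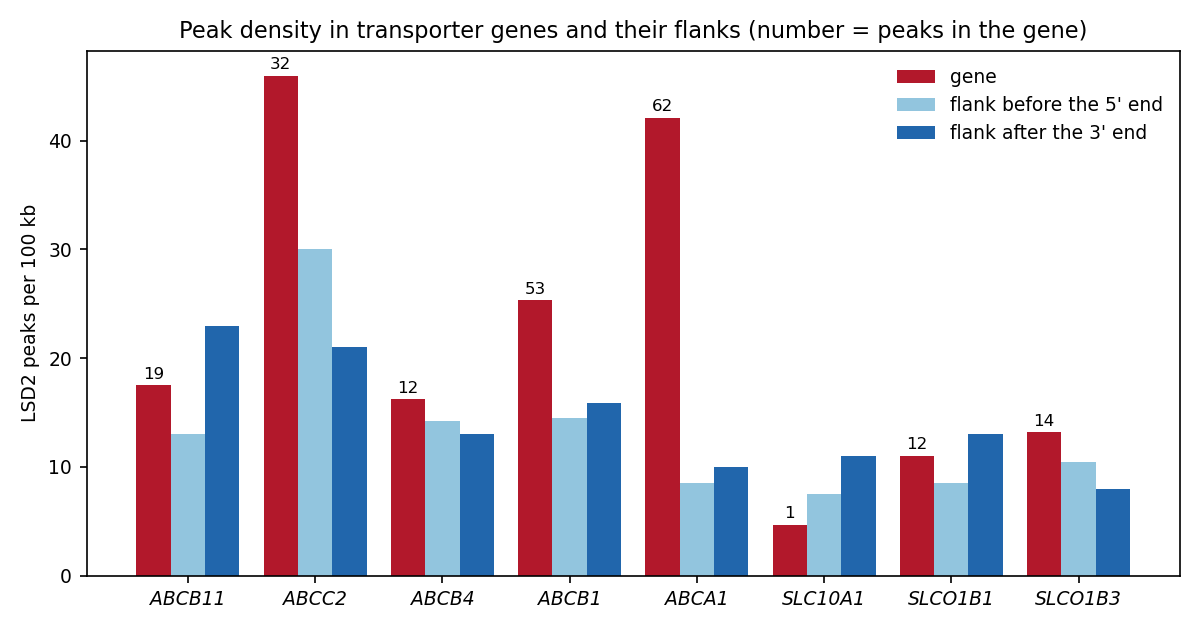
Peaks per 100 kb (vertical axis) in each gene (red), in the 200 kb before its 5′ end (light blue) and in the 200 kb after its 3′ end (dark blue), without stretches that belong to another of the 8 genes, with the number of peaks in the gene above its bar. ABCC2 and ABCA1 stand at 46.0 and 42.1 peaks per 100 kb, while the other 6 genes lie between 4.66 and 25.3. The light blue bar of ABCB4 rests on 28.2 kb with 4 peaks, and the dark blue bar of ABCB1 on 126 kb with 20.

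ABCA1 differed most from its surroundings. The gene (chr9:107543283-107690527, minus strand, 147 kb) held 62 peaks, or 42.1 per 100 kb. The 200 kb before its 5′ end held 17 peaks (8.50 per 100 kb) and the 200 kb after its 3′ end held 20 (10.0 per 100 kb). The ratio of gene to flanks was 4.55 (95% interval 2.98 to 7.04). Chromosome 9 was divided into windows of the same length as the gene to see how common such a contrast is. Of 812 windows with complete flanks, 8 had a ratio at least as high, and the 95th percentile was 2.05. Of 824 windows, 1 held at least as many peaks as the gene, and the median window held 16.

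Within ABCA1 the peaks were few in the first 20 kb and densest in the last 2 of 5 equal sections. Successive 20 kb bins from the 5′ end held 3, 8, 7, 6, 10, 14 and 10 peaks up to 140 kb, whereas none of the 10 bins before the gene held more than 3. Divided into 5 equal sections from the 5′ end, the gene had 8, 10, 9, 19 and 16 peaks. The nearest peak to the 5′ end lay 3085 bp before it (chr9:107693612-107693967). The longest stretch without a peak inside the gene was 11018 bp, between the peaks at chr9:107667321-107667464 and chr9:107678483-107678621, in the part nearest the start. Beyond the 3′ end the nearest peak was 431 bp away, and the bins from 160 to 220 kb held 5, 3 and 2 peaks.

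Peaks in ABCA1 were also wide and closely spaced. Their widths ran from 139 to 873 bp and centred on 279.5 bp (the median, with 95% interval 194 to 325 bp), while the median in the flanks was 182 bp. The widest peak, of 873 bp, was at chr9:107563197-107564069, 127 kb from the 5′ end. At least 400 bp was reached by 15 of the 62 peaks (24.2%), against 3 of the 37 in the flanks (8.11%) and 7.89% of all peaks. Among gaps between neighbouring peaks of the gene, 27 of 61 were under 1 kb, and the median gap was 1252 bp. A high density by itself shortens gaps, and spacing was not compared at equal density. The longest series in which each peak was within 2 kb of the next had 11 peaks in 9.70 kb (chr9:107582442-107592143), 34.5% of which was covered by peaks. In all, peaks covered 12.5% of ABCA1 and 2.26% of its flanks. The RefSeq gene table lists olfactory receptor genes, NIPSNAP3A and NIPSNAP3B beside ABCA1, and NIPSNAP3B overlaps its 3′ side there. The non-coding RNA genes LOC124902239 and LOC105376196 are listed as overlapping ABCA1 too. These overlaps were not placed on the hg19 peaks, so which peaks lie in a shared stretch is not known.

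**Figure D2:**
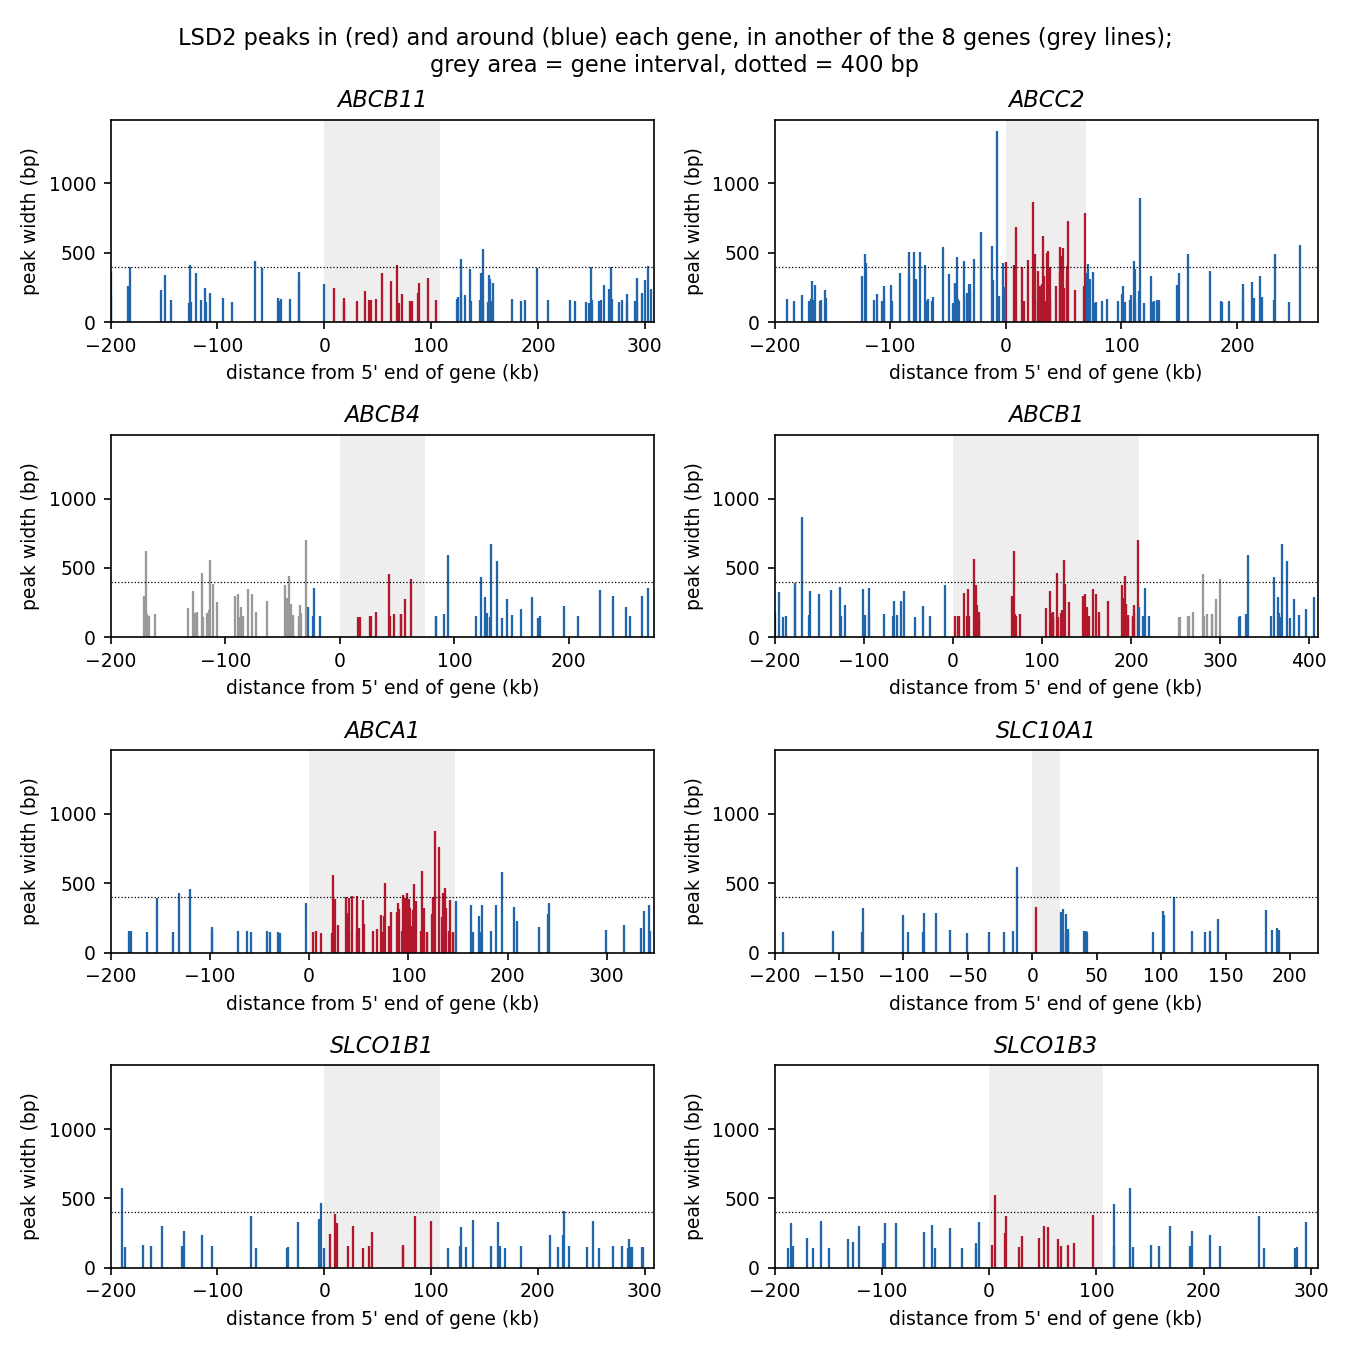
Each vertical line is a peak, placed by the distance of its midpoint from the 5′ end of the gene (kb, horizontal axis) and drawn to its width (bp, vertical axis), red in the gene, blue in the flanks and grey where it lies in another of the 8 genes. The ABCA1 panel shows 62 red lines between sparse flanks of 17 and 20 peaks, and the ABCC2 panel shows dense peaks on both sides of the gene as well as in it.

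Among the canalicular pumps, ABCC2 had the highest density and the highest median peak width of all 8 genes. The gene (chr10:101542355-101611949, plus strand, 69.6 kb) held 32 peaks, or 46.0 per 100 kb. Its flanks were dense too, with 30.0 per 100 kb before the 5′ end and 21.0 after the 3′ end. The ratio of gene to flanks was 1.80 (95% interval 1.17 to 2.71), but with 100 kb flanks it was 1.39 (0.884 to 2.16) and with the flank before the 5′ end alone 1.53 (0.966 to 2.39), intervals that include 1. Among same-length windows of chromosome 10, 8 of 1898 held at least as many peaks. A ratio at least as high was found in 126 of 1886, and the 95th percentile was 1.92, above the value for ABCC2. The gene thus lay in a dense neighbourhood, in which RefSeq lists ENTPD7, COX15 and CUTC on the 5′ side and DNMBP on the 3′ side.

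The median ABCC2 peak was 397.5 bp wide (95% interval 274 to 477 bp), against 207 bp in its flanks. The range in the gene was 150 to 869 bp. Of its 32 peaks, 15 reached 400 bp (46.9%), against 20 of 102 in the flanks (19.6%). Peaks covered 18.6% of the gene and 7.14% of the flanks. The widest, at chr10:101565748-101566616, opened the longest series, of 13 peaks in 14.8 kb (chr10:101565748-101580578), from 23.4 to 38.2 kb into the gene. Its 5 equal sections held 3, 6, 10, 9 and 4 peaks. The nearest peak to the start, 430 bp wide at chr10:101542498-101542927, began 143 bp inside the gene, and the nearest to the 3′ end lay 374 bp after it. The longest peak-free stretch, 7932 bp, ran between the peaks at chr10:101601671-101601901 and chr10:101609834-101610095.

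ABCB1, the longest of the 8 genes, held 53 peaks over 209 kb (chr7:87133175-87342564, minus strand), or 25.3 per 100 kb. The flank before the 5′ end had 14.5 per 100 kb and the one after the 3′ end had 15.9, with ABCB4 left out of it and 16 of its 20 peaks on the far side of ABCB4. The ratio to both flanks was 1.68 (95% interval 1.12 to 2.54), and 46 of 741 same-length windows of chromosome 7 had a ratio at least as high. With the 3′ flank alone it was 1.59 (0.937 to 2.82). Peaks in ABCB1 were not wider than in its flanks by median, at 185 bp against 219 bp, and 6 of 53 reached 400 bp, against 5 of 49. They came in groups. The 5 equal sections held 12, 6, 12, 10 and 13 peaks, and the longest peak-free stretch in any of the 8 genes, 36398 bp, lay between the peaks at chr7:87275825-87276122 and chr7:87312521-87312663. The longest series, of 7 peaks in 7.23 kb, was at chr7:87145697-87152928, near the 3′ end, and the widest peak, of 701 bp, was at chr7:87134522-87135222. The nearest peak to the 5′ end of the interval, at chr7:87339891-87340043, lay 2521 bp inside the gene. The nearest to the 3′ end was 52 bp beyond it. RefSeq gives ABCB1 a second promoter window inside the gene. On GRCh38.p14 the outer window is chr7:87713246-87713545 and the inner one is chr7:87600835-87601134. The inner start was not placed on hg19, so distances of peaks to it were not measured. If the outer window marks the 5′ end and the spacing is the same on hg19, peaks lie close to the inner start. These are chr7:87229732-87229915 and chr7:87230118-87230262, with midpoints 112740 and 112374 bp from the 5′ end. RUNDC3B overlaps the 5′ part of ABCB1, so peaks there cannot be assigned to ABCB1 alone.

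ABCB4, the neighbour of ABCB1, held 12 peaks over 74.0 kb (chr7:87031013-87105019, minus strand), or 16.2 per 100 kb, against 13.1 in its flanks. Its ratio of 1.23 (95% interval 0.575 to 2.48) does not separate it from them, and it was 0.914 when ABCB1 was kept in the flanks. With ABCB1 left out, the flank before the 5′ end of ABCB4 was 28.2 kb with 4 peaks, and its 3′ flank held 26. RefSeq lists CROT as overlapping the 3′ side of ABCB4. No peak lay in the first of the 5 sections of ABCB4, and the nearest to its 5′ end, at chr7:87089036-87089183, was 15836 bp into the gene, the greatest such distance of the 8. The median width was 167.5 bp, against 211 bp in the flanks, and the widest was 460 bp at chr7:87061613-87062072. The longest peak-free stretch, 10963 bp, ran from that peak to chr7:87073036-87073220, and the longest series had 2 peaks.

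ABCB11, which carries the main bile salt export pump, had no more peaks than its surroundings. It held 19 peaks over 108 kb (chr2:169779448-169887832, minus strand), or 17.5 per 100 kb, against 13.0 before its 5′ end and 23.0 after its 3′ end. The ratio to both was 0.974 (95% interval 0.555 to 1.63), and 1083 of 2204 same-length windows of chromosome 2 held at least as many peaks. Its peaks were narrow, with a median of 172 bp, against 176.5 bp in the flanks, and 1 reached 400 bp, at chr2:169819320-169819729 (410 bp). The 5 sections held 3, 3, 4, 5 and 4 peaks, an even spread. A peak of 273 bp at chr2:169887939-169888211 lay 107 bp before the 5′ end. It was the closest peak to the 5′ end of an interval among the 8 gene intervals. The longest peak-free stretch was 11691 bp, from chr2:169857110-169857263 to chr2:169868955-169869126.

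The uptake carriers had fewer peaks than the densest pumps, and none had a ratio whose interval excluded 1. SLCO1B1 (chr12:21284128-21392730, plus strand, 109 kb) held 12 peaks, or 11.0 per 100 kb, against 10.75 in its flanks, a ratio of 1.03 (95% interval 0.493 to 1.98). SLCO1B3 (chr12:20963638-21069843, plus strand, 106 kb) held 14 peaks, or 13.2 per 100 kb, against 9.25, a ratio of 1.43 (0.712 to 2.70). On chromosome 12 the median window of either length held 13 peaks. These genes are close neighbours, listed on the same strand in the RefSeq table, where the readthrough gene SLCO1B3-SLCO1B7 runs from SLCO1B3 into that space.

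In SLCO1B1 the median width was 251.5 bp, against 158 bp in the flanks, but the interval of the gene's median ran from 158 to 325 bp and none of its 12 peaks reached 400 bp. Its widest peak, of 390 bp, was at chr12:21294453-21294842. The nearest peak to its 5′ end, at chr12:21283689-21283830, ended 298 bp before the start. A peak-free stretch of 28662 bp lay between chr12:21328541-21328796 and chr12:21357459-21357621. In SLCO1B3 the median was 224 bp, against 189 bp, and the widest peak, of 528 bp, was at chr12:20968614-20969141. Its nearest peak to the start lay 2754 bp inside the gene (chr12:20966392-20966553), and its longest peak-free stretch of 16729 bp ended at chr12:21059894-21060274 after starting at chr12:21042988-21043164.

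SLC10A1, the shortest gene at 21.5 kb (chr14:70242552-70264006, minus strand), held 1 peak. It was 332 bp wide, at chr14:70261251-70261582, and lay 2424 bp inside the 5′ end. The density of 4.66 per 100 kb compares with 9.25 in the flanks, but 1 peak leaves a wide interval on the ratio of 0.504 (0.0124 to 2.99). Of 4114 windows of this length on chromosome 14, 915 held no peak and 965 held 1, and the median was 2. A low count here is not detectable as a difference from the neighbourhood.

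**Figure D3:**
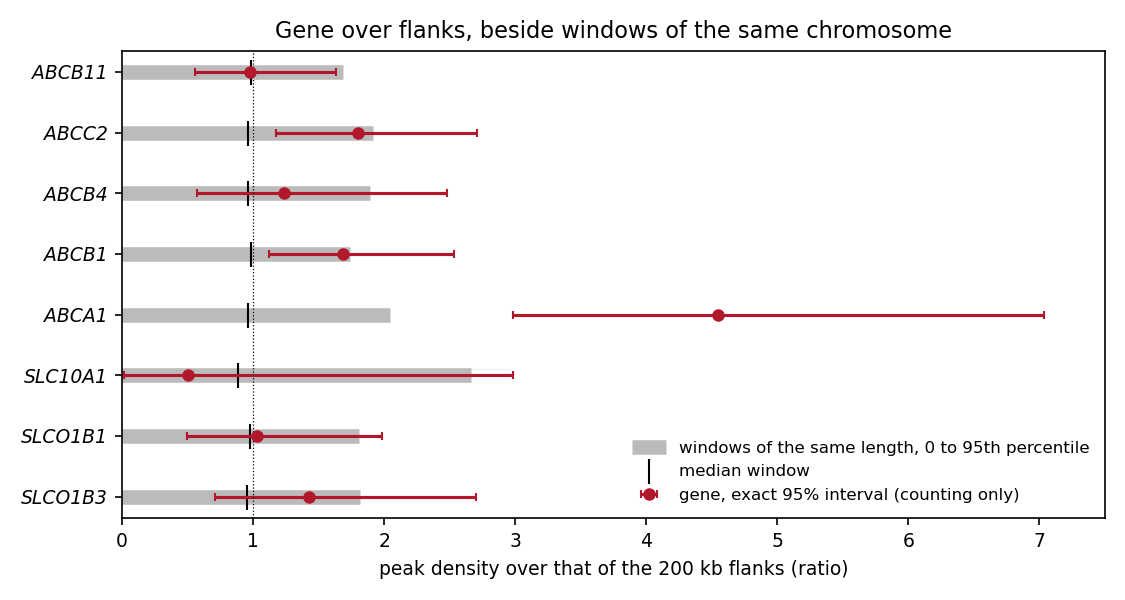
Ratio of peak density in each gene to that in its 200 kb flanks (horizontal axis; red point with exact 95% interval for counting error), over the range from 0 to the 95th percentile of windows of the same length on the same chromosome (grey bar; black tick, median). ABCA1, at 4.55, is beyond its grey bar, which ends at 2.05, and the other 7 points lie within theirs.

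Over the 8 genes, peaks were wider than in the flanks by median. The median was 247 bp (95% interval 208 to 276 bp), against 182 bp in the flanks (167 to 208 bp) and 173 bp over all peaks, and the median of the other 7 genes was 211 bp without ABCC2 and 231 bp without ABCA1. In 5 genes the median was above that of the flanks (ABCC2, ABCA1, SLC10A1, SLCO1B1 and SLCO1B3) and in 3 below it (ABCB11, ABCB4 and ABCB1). At least 400 bp was reached by 40 of 205 (19.5%; exact interval 14.3% to 25.6%), against 10.5% in the flanks (7.54% to 14.0%) and 7.89% of all peaks. ABCC2 and ABCA1, which held 94 of the 205 peaks, supplied 30 of the 40. Peaks covered 6.92% of the genes, 3.51% of the flanks and 3.03% of all searched sequence. Gaps under 1 kb were 67 of 197 within the genes (34.0%; 27.4% to 41.1%), against 20.9% in the flanks and 17.4% of all gaps. Of the 67, 27 were in ABCA1, 18 in ABCB1 and 15 in ABCC2. These shares rise with density itself and were not compared at equal density. Median gaps were 1013 bp in ABCC2, 1252 bp in ABCA1 and 1459.5 bp in ABCB1, while those of ABCB4, SLCO1B1, ABCB11 and SLCO1B3 were 3347, 5126, 5338 and 5929 bp, beside 4218 bp over all peaks.

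**Figure D4:**
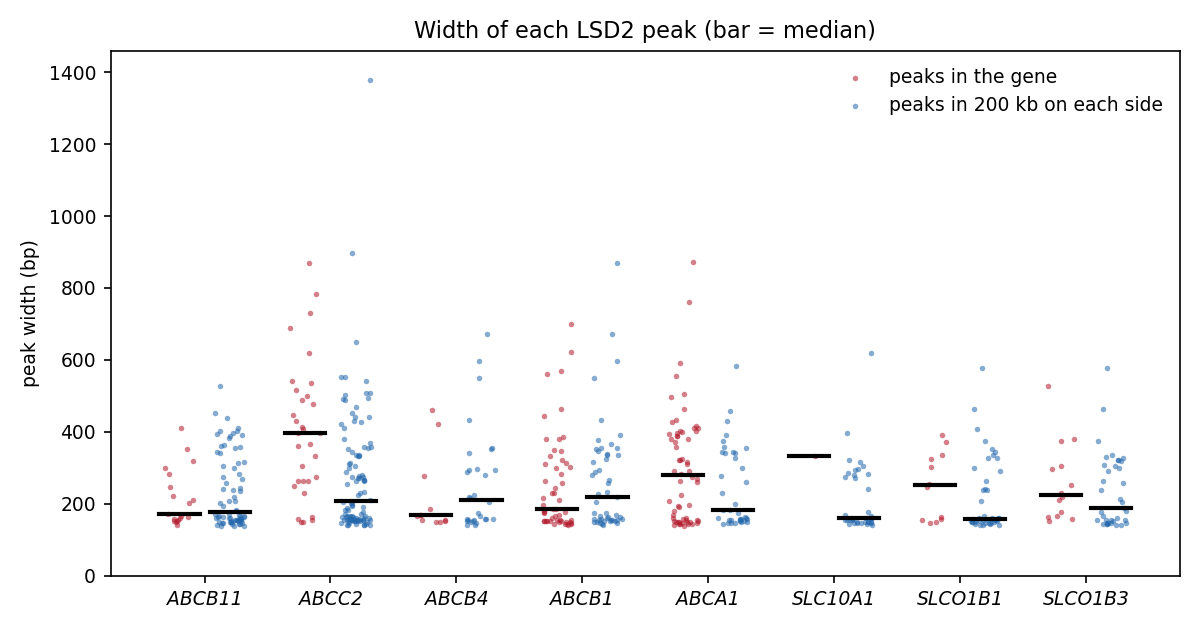
Width of every peak (bp, vertical axis) in each gene (red) and in its flanks (blue), with the median as a black bar. Medians in ABCC2 and ABCA1, 397.5 and 279.5 bp, lie above the flank medians of 207 and 182 bp, as do those of SLC10A1 (1 peak), SLCO1B1 and SLCO1B3, while those of ABCB11, ABCB4 and ABCB1 lie below theirs.

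Peaks were also placed relative to the ends of the genes. A start here is the 5′ end of the gene interval. The inner promoter window of ABCB1 was not counted, so peaks that may lie close to it do not enter these counts. A peak lay within 1 kb of the 5′ end in 3 genes (ABCB11, ABCC2 and SLCO1B1) and within 1 kb of the 3′ end in 4 (ABCB1, ABCC2, ABCA1 and SLC10A1), while 24.7% of all searched bases were that close to a peak. Within 5 kb, 7 of the 8 starts had a peak, ABCB4 being the exception, beside 67.8% of all searched bases. Pooled over the genes, the 5 sections from the 5′ end held 34, 35, 42, 54 and 40 peaks. The first section had 16.6% of the peaks (exact interval 11.8% to 22.4%), and ABCA1 supplied 19 of the 54 in the fourth.

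Repeated lines were unevenly spread over the genes. Of the 205 peaks, 48 were listed more than once (23.4%), against 15.8% in the flanks and 10.1% of all peaks, and 45 of the 48 were in ABCB1, SLCO1B1 and SLCO1B3. In SLCO1B3 all 14 peaks were repeated, 13 of them listed 3 times and 1 listed 4 times. They formed part of an unbroken row of 27 repeated peaks from chr12:20966392-21219858, which started at the first peak of the gene and ran on past its 3′ end. In SLCO1B1 the 8 repeated peaks were the first 8 of 12. In ABCB1, 18 successive repeated peaks lay in chr7:87266560-87340043 in the 5′ part, and 5 more lay at chr7:87146162-87151471, near the 3′ end. ABCB11, ABCB4 and SLC10A1 had 0 repeated peaks and ABCA1 had 1. The RefSeq table lists RUNDC3B over the 5′ part of ABCB1, the pseudogene HNRNPA1P9 inside it and the readthrough gene SLCO1B3-SLCO1B7 over SLCO1B3. For SLCO1B1 it lists LOC124903123 and LOC124902895 as overlapping. Overlaps are also listed for ABCC2 (NANOGP6), ABCB4 (CROT) and ABCA1 (NIPSNAP3B, LOC124902239 and LOC105376196). Yet only 2 of 32, 0 of 12 and 1 of 62 peaks were repeated in ABCC2, ABCB4 and ABCA1. Whether lines repeat with overlapping annotation was not tested. Counting every line gave SLCO1B3 a ratio of 2.49 (95% interval 1.65 to 3.72) in place of 1.43, because its lines number 43 for 14 peaks.

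**Figure D5:**
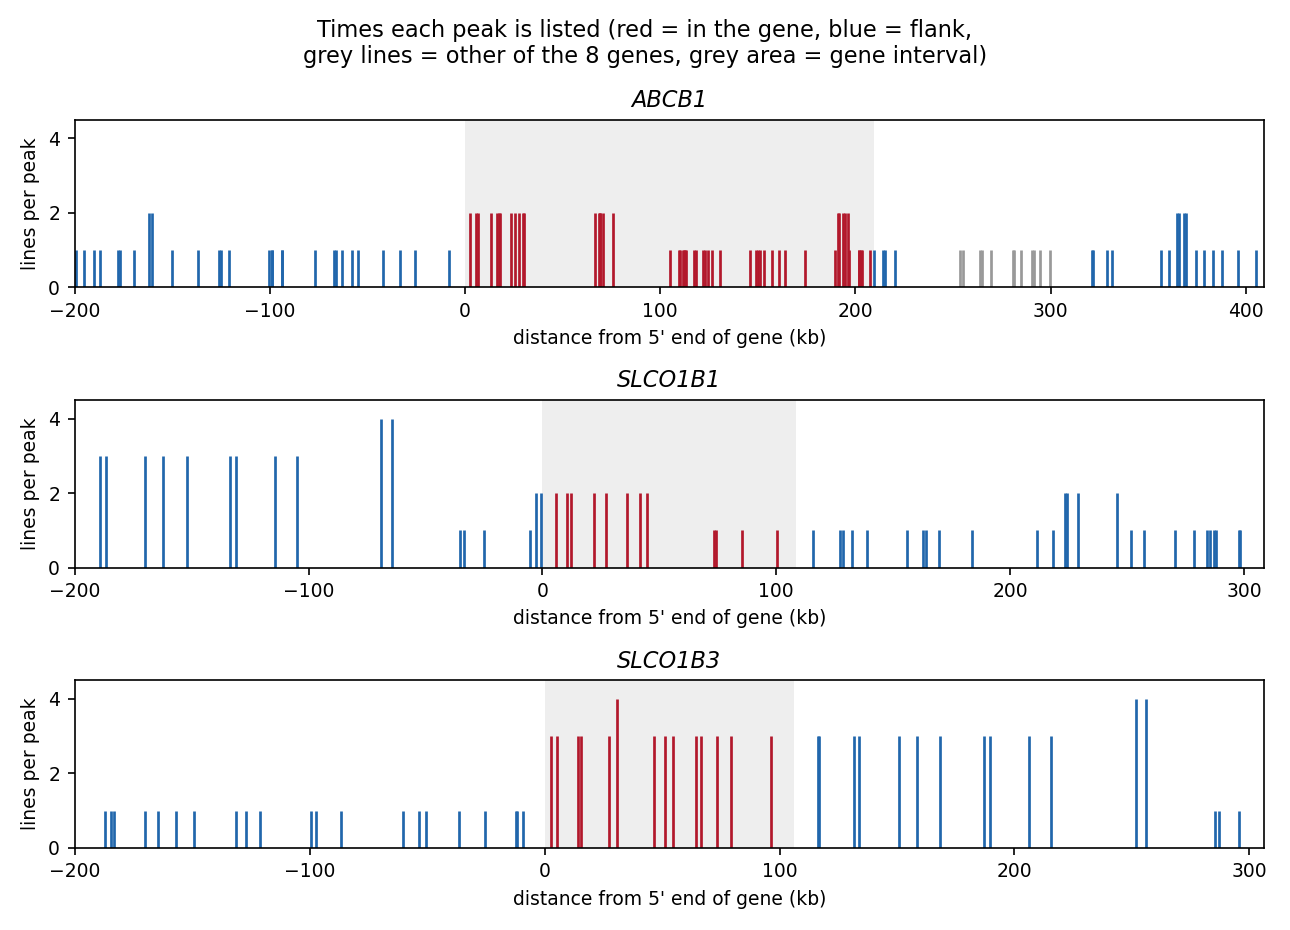
Number of lines that list each peak (vertical axis) by distance from the 5′ end of the gene (kb, horizontal axis) in ABCB1, SLCO1B1 and SLCO1B3, red in the gene, blue in the flanks and grey in another of the 8 genes. Every red line in the SLCO1B3 panel reaches 3 or 4, and in SLCO1B1 the first 8 red lines reach 2 while the last 4 stay at 1.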

How the data were processed

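The deposited list holds start and end positions of peaks on hg19. Per the file headers, MACS was run by the authors on trimmed, deduplicated reads of LSD2 against input, with read and fragment lengths of 120 bp, a cutoff of 1e-05 on p, an enrichment factor of 32 and a genome of 2700 Mb. BWA is named in the submitters' processing notes, without a version. The header gives ChIP and input different run dates, so run and antibody cannot be told apart. Peak number and width both move with depth, which is unknown here.

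Identical lines (414095 lines, 370863 distinct intervals) were counted once, and positions are printed counted from 1. Gene intervals were fixed hg19 coordinates, and strands came from general knowledge, checked against RefSeq for the 7 genes with a promoter window. Searched sequence (2862 Mb) left out peak-free stretches over 500 kb. Intervals are conditional binomial for ratios, Clopper-Pearson for shares (scipy 1.17.1) and from order statistics for medians. The ratio procedure was run on simulated peaks placed independently and at random. That run checks the calculation only and cannot show how the intervals behave where peaks cluster. Named peaks are the widest, the nearest to the gene ends, the edges of the longest peak-free stretch and the longest series of each gene. The members and lists were chosen with earlier results of these data known. Other transporter genes, exons and peak sequences were not analysed here, since no hg19 annotation or genome was used.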

Additional observations from a re-analysis of the deposited data

How the results depend on the processing

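All alternatives here were planned. The number of peaks in the 8 genes was 131 among peaks of at least the median width and 40 among those of at least 400 bp, which keep fewer peaks by construction, and 268 with every line counted. Assignment by an overlap of at least 1 bp left all 205. The ratio of the genes to their flanks was 2.09 among peaks of at least the median width, 3.21 among those of at least 400 bp and 1.37 without ABCA1, and lay between 1.58 and 1.88 under the other alternatives. The share of the genes covered was 5.58% by the wider peaks alone. Starts with a peak within 5 kb numbered 7, against 3 within 1 kb, and gaps under 2 kb made up 53.3% of gaps in the genes, beside 30.3% of all gaps. Genes denser than their flanks numbered 5 to 7. Of 80 values for single genes, 76 stayed within their main interval and 4 left it, all among peaks of at least 400 bp. None turned from a direction that excluded 1, which was possible only for ABCA1, ABCC2 and ABCB1. Values on both sides of 1 occurred for ABCB11 (0.615 to 1.35), ABCB4 (0.725 to 1.54), SLC10A1 (0 to 1.33) and SLCO1B1 (0 to 1.61). SLCO1B3 ranged from 1.21 to 2.49. ABCA1 ranged from 3.37 to 13.6. No paired analysis was possible because each condition had 1 library. Without depth or scores, a gene with few peaks cannot be separated from one with too few reads.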
